A study of Mus musculus with 6 samples.

Results

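The genes described here are 10 antioxidant and thioredoxin defence genes, Txnip, Txnrd1, Prdx1, Prdx6, Gpx1, Gpx3, Sod1, Sod2, Cat and Gclc, measured in pancreatic islets of mice fed high fat or normal food. They were chosen by name, and each was linked to 1 of the 39470 loci in the deposited count table by the lengths of its exons and introns on the same chromosome and strand. All 10 found a locus, none had over 90% of its exonic bases in common with another locus, and all 10 passed the filter on low counts. The mice were C57BL/6, a common inbred strain, aged 14 weeks at sacrifice after 8 weeks on the high fat diet (3 libraries) or the normal diet (3 libraries). Ribosomal RNA was removed, poly(A) selection was left out, and a stranded kit was used. The count columns name the diets ND and HDR, and HDR was read as the high fat diet because it is the other diet in the labels.

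Superoxide dismutases turn superoxide into hydrogen peroxide, which catalase, glutathione peroxidases and peroxiredoxins then break down. Peroxiredoxins are recharged by thioredoxin, which thioredoxin reductase reduces with NADPH, and glutathione peroxidases use glutathione, whose synthesis is limited by glutamate cysteine ligase. Txnip encodes a protein that binds and inhibits thioredoxin and whose gene is switched on by glucose through the transcription factors ChREBP (gene Mlxipl) and Mlx. Beta cells, the insulin-secreting cells that make up most of an islet, are known for low levels of catalase and glutathione peroxidase.

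In high fat islets 3 of the 10 genes rose and 0 fell. They were Txnip, the thioredoxin inhibitor, at 1.65-fold, and the peroxiredoxin genes Prdx1 and Prdx6 at 1.31-fold and 1.25-fold. Gclc and Txnrd1 lay higher in every high fat library than in any normal diet library but did not pass the test. Gpx1, Gpx3, Sod1, Sod2 and Cat had overlapping libraries. The test was edgeR's quasi-likelihood test over all 23983 loci tested with Benjamini-Hochberg adjustment, at a threshold of 0.05. Over all loci tested 5.95% rose and 4.86% fell, and among loci linked to coding genes 8.74% rose and 2.99% fell. The median log2 fold change of the 10 genes was 0.22, against -0.05 over all loci and 0.06 over coding loci.

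Reference sequence shows features of several of these genes that their choice did not use. The promoter of Txnip is shown because it holds a pair of E-box-like sites spaced as in a carbohydrate response element, the kind of site that ChREBP and Mlx bind. The promoter of Prdx1 is shown because it holds the core of an antioxidant response element, the site that the oxidative stress factor NRF2 binds. Both run from 250 bases before the transcript start to the base before it, 5′ to 3′, from RefSeq on GRCm38.p6, with the motif in capitals. They lie at chr3:96557707-96557956 on the plus strand and chr4:116685349-116685598 on the plus strand of that build.
Txnip: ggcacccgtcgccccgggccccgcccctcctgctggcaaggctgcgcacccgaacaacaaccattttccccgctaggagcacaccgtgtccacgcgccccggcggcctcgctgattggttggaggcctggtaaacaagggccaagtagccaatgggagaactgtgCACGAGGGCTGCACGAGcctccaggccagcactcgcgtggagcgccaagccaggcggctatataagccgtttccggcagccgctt
Prdx1: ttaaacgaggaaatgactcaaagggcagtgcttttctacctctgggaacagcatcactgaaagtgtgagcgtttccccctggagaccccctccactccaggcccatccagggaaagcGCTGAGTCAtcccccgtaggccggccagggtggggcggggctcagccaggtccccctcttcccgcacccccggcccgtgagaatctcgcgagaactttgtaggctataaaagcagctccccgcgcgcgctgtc

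The pair was searched as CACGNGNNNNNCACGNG and the antioxidant core as TGACNNNGC, each on both strands. Of 32851 promoters in the table, 15 (0.0457%) held the first and 3338 (10.2%) the second. The pair in Txnip starts at position -85 from the transcript start. Of the 8 genes with an entry (Prdx6 and Gclc had none), 1 held the pair and 3 held the antioxidant core. These 8 genes had 10 promoters, Txnrd1 having more than 1, while the shares above are per promoter and not per gene. The core was in Prdx1 at -133, in 1 of the Txnrd1 promoters at -92 and in Sod1 at -56. The palindrome CACGTG, which 6.02% of promoters held, was in none of these 8 genes within the window. A match is a description of letters and not evidence of binding.

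Gpx1, Gpx3 and Txnrd1 encode selenoproteins, in which a TGA codon inside the reading frame is read as selenocysteine, the reactive residue of the enzyme, and not as a stop. The coding sequence around that codon is printed from GENCODE M21 (GRCm38), 5′ to 3′, with the codon in capitals, because it places the residue differently in the peroxidases and in the reductase.
Gpx1: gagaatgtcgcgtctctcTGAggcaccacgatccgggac
Gpx3: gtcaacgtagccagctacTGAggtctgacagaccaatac
Txnrd1: atcctccagtctggctgcTGAggt

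The codon is number 47 of 201 in Gpx1 (chr9:108339451-108339453, plus strand) and number 73 of 226 in Gpx3 (chr11:54907256-54907258, plus strand). In the longest Txnrd1 reading frame it is number 612 of 613 (chr10:82896037-82896039, plus strand), next to the end of the protein.

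The levels of the genes were compared per length, as TMM-normalised counts scaled to a library of 1000000 reads (CPM) divided by kilobases of exonic sequence. Txnip was the highest, at 170 ± 53 CPM per kb in high fat islets and 103 ± 11 in normal diet islets (SD, n = 3 each). Prdx6 followed at 121 ± 2.3 CPM per kb in high fat islets and 96.8 ± 9.0 in normal diet islets. Prdx1 stood at 89.9 ± 3.5 CPM per kb in high fat islets and 68.8 ± 5.1 in normal diet islets, and Gpx1 at 80.7 ± 31 in high fat islets and 66.3 ± 6.1 in normal diet islets. Txnrd1 stood at 50.3 ± 0.66 CPM per kb on the high fat diet and 44.0 ± 0.57 on the normal diet. Gpx3 had 31.8 ± 5.2 CPM per kb in high fat islets and 39.6 ± 8.2 in normal diet islets, and Gclc 17.2 ± 1.6 in high fat islets and 14.6 ± 0.36 in normal diet islets. Catalase RNA was lower than all of these, at 3.95 ± 0.58 CPM per kb in high fat and 3.76 ± 0.23 in normal diet islets, at percentile 48.3 of coding loci tested, while Txnip was at percentile 98.2. Among the same coding loci in these whole islets, Gpx1 was at percentile 96.0 and Gpx3 at percentile 89.9. These are ranks of RNA within islets, and no other tissue was measured. They therefore cannot show whether catalase or glutathione peroxidase is low in beta cells in the sense given above. Neighbours in this order whose libraries overlapped on the normal diet were Txnip and Prdx6, Prdx1 and Gpx1, and Txnrd1 and Gpx3. On the high fat diet they were Prdx1 and Gpx1, Gpx1 and Txnrd1, and Sod1 and Cat.

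**Figure D1:**
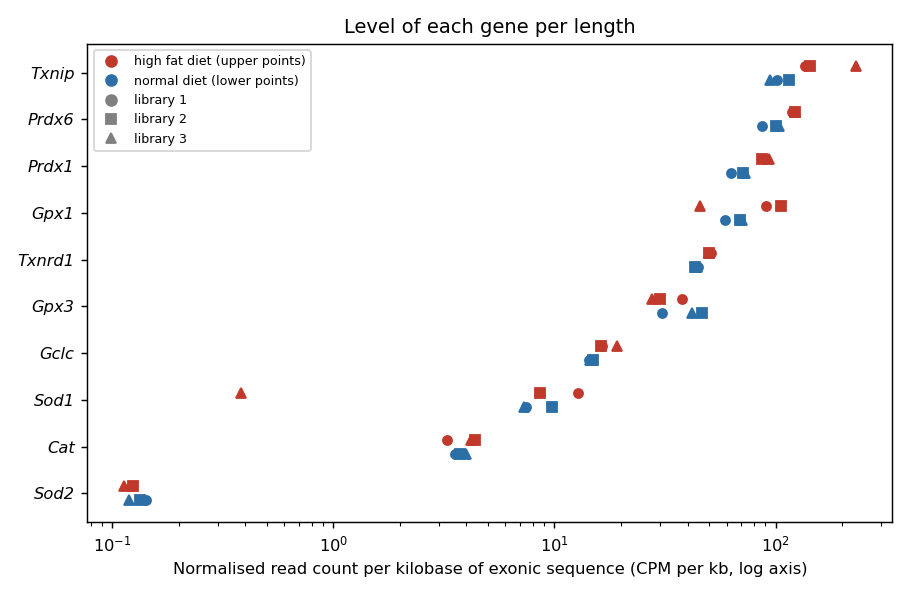
Level of each gene per kilobase of exonic sequence (CPM per kb, log axis) in each high fat library (upper points) and each normal diet library (lower points). Txnip, Prdx6 and Prdx1 lead, Cat has means of 3.95 in high fat and 3.76 CPM per kb in normal diet islets, and high fat library 3 stands apart for Sod1 and Gpx1.

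Sod1 and Sod2 levels are limited by how loci overlap. Sod1 (XLOC_013392) shares 71.0% of its exonic bases with Scaf4 on the opposite strand, which leaves 188 unshared bases. Sod2 (XLOC_014187) shares 62.0% with an unnamed locus on the opposite strand. Over all loci linked to coding genes, the median was 2.03 CPM per kb for the 13367 with no shared bases, 1.03 for the 342 with 50 to 75% shared, and 0 for the 504 with over 90% shared. Whether counting used strand is not given in the sources used here. The counts of Sod1 and Sod2 therefore do not give the level of their RNA, and they are listed below as counts of these loci.

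The total counts per library ran from 104657337 to 135353777. On the second principal component over all loci, high fat library 3 had a score of 35.2, and high fat libraries 1 and 2 had -19.6 and -18.5. Its values are given beside each gene that it moves. Whether each library is a different mouse is not in the labels, and the p-values cover only library-to-library spread, which may be technical. In such bulk samples fewer cells of a type and less RNA per cell cannot be told apart.

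**Figure D2:**
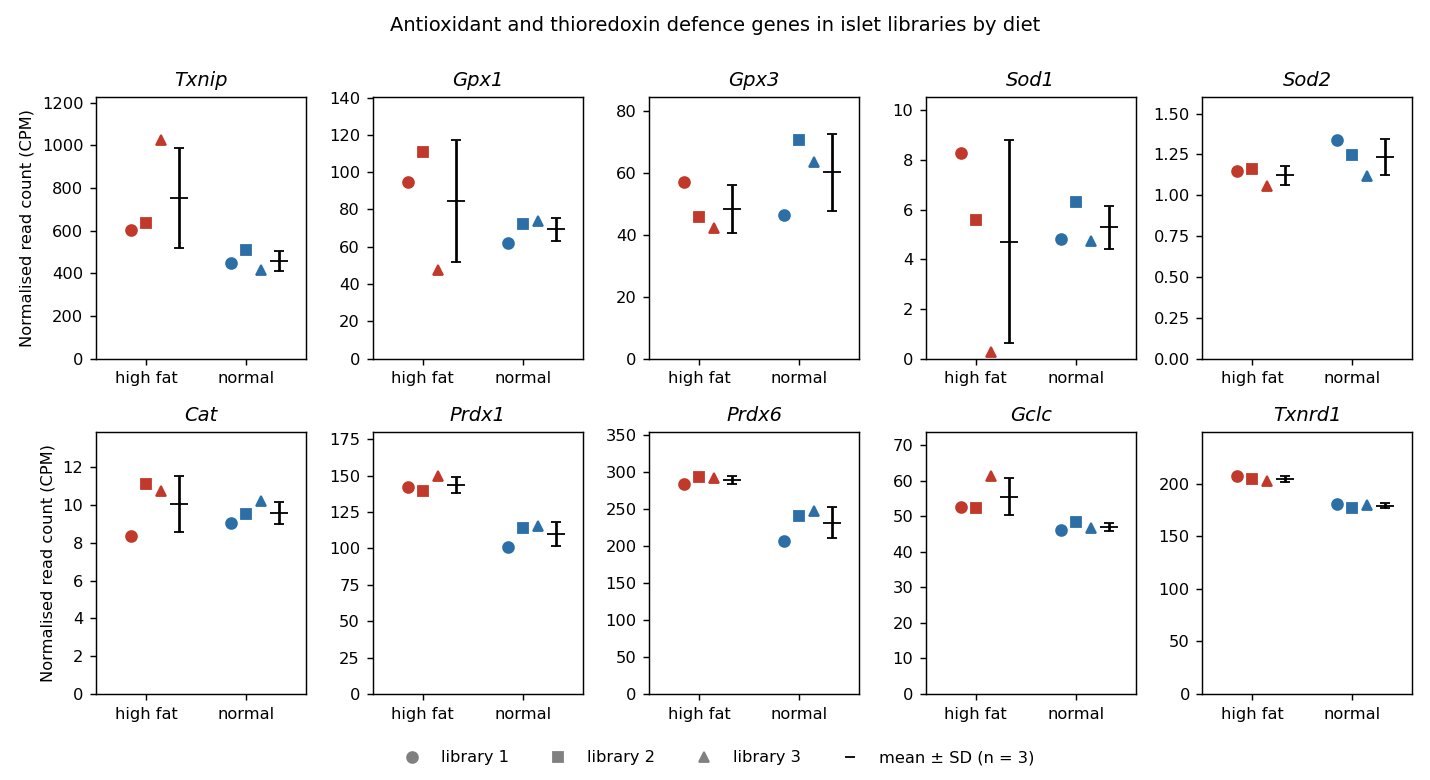
Normalised read count (CPM, linear axes from 0) of each gene in the 3 high fat libraries (red, left) and the 3 normal diet libraries (blue, right), with the mean ± SD beside each group. For Txnip, Prdx1, Prdx6, Gclc and Txnrd1 every high fat library lies above every normal diet library.

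Within the thioredoxin arm, Txnip (XLOC_022142, chr3:96360643-96365780, plus strand of mm9) had 602, 637 and 1024 CPM in high fat libraries 1, 2 and 3, against 449, 509 and 417 CPM in normal diet libraries 1, 2 and 3. The diets did not overlap, and high fat library 3 was far above the other high fat libraries. The log2 fold change was 0.72 (SE 0.19, edgeR adjusted p = 0.046). Without high fat library 3 it was 0.44 (edgeR adjusted p = 0.011), and with library totals in place of TMM it was 0.53 and did not pass (edgeR adjusted p = 0.099). Txnip shares 28.8% of its exonic bases with an antisense locus, Gm15441, which held 0.159, 0.373 and 0.347 CPM in the high fat libraries and 0.272, 0.246 and 0.196 CPM in the normal diet libraries. The log2 fold change of that antisense locus was 0.30 (SE 0.35, edgeR adjusted p = 0.59). Because of the overlap, the counts of Gm15441 do not give the level of its RNA. Coding loci with 25 to 50% of bases shared had a median of 1.37 CPM per kb, against 2.03 for those with none. The part of the overlap in the Txnip level was not tested.

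Txnrd1 encodes the cytosolic thioredoxin reductase, which reduces oxidised thioredoxin. It had 208, 204 and 202 CPM in the high fat libraries, against 181, 177 and 179 CPM in the normal diet libraries. The diets did not overlap and the libraries of each diet lay close together, but the log2 fold change was small at 0.19 (SE 0.069, edgeR adjusted p = 0.096). It passed once high fat library 3 was left out, at 0.21 (edgeR adjusted p = 0.048). With library totals in place of TMM it was -0.0098, and -0.0092 by limma, which was also run on values scaled by library totals. These flips of sign come with shifts of -0.20 and -0.19 in the median of coding loci. Over all loci the shifts were -0.20 and -0.10.

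The peroxiredoxins both rose. Prdx1 (XLOC_024076, chr4:116358204-116372605, plus strand of mm9), an abundant cytosolic peroxidase recharged by thioredoxin, had 142, 139 and 149.9 CPM in the high fat libraries, against 101, 114 and 116 CPM in the normal diet libraries. Every high fat library was above every normal diet library. The Prdx1 difference was 0.38 on the log2 scale (SE 0.084, edgeR adjusted p = 0.031). Prdx6 (XLOC_001342, chr1:163170243-163181354, minus strand of mm9), a peroxidase that also acts as a phospholipase and is recharged by glutathione, had 284, 294 and 292 CPM in the high fat libraries, against 208, 240.5 and 248 CPM in the normal diet libraries. The diets did not overlap here either, and the log2 fold change was 0.32 (SE 0.087, edgeR adjusted p = 0.048). Without high fat library 3 they stood at 0.36 and 0.32. With library totals in place of TMM, Prdx1 stood at 0.18 (edgeR adjusted p = 0.17) and Prdx6 at 0.12 (edgeR adjusted p = 0.34), so neither passed. Processed copies of peroxiredoxin genes exist in the mouse genome, and how reads that map to several places were counted is not given in the sources used here.

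Leaving out normal diet library 1, 2 or 3, or high fat library 1 or 2, left 0 of the 10 genes past the edgeR test, with lowest adjusted p-values of 0.12, 0.091, 0.084, 0.059 and 0.080. Over all loci those fits called 0, 0, 0, 128 and 86, so the loss is not particular to these genes. At an unadjusted p under 0.05 there were 4, 3, 3, 5 and 5 of the 10 genes in those fits, where 22.4%, 25.2%, 25.6%, 28.2% and 25.3% of all loci had such a p. With only high fat library 3 left out, 5 of the 10 rose, where 12.4% of all loci did. The direction of the 3 genes held in all 6 such fits, with log2 fold changes of 0.44 to 0.87 for Txnip, 0.30 to 0.42 for Prdx1 and 0.23 to 0.35 for Prdx6. DESeq2 on the same counts also called these 3 genes and no other of the 10, at adjusted p-values of 0.0055, 0.0061 and 0.027, where it called 9.49% of all loci higher.

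**Figure D3:**
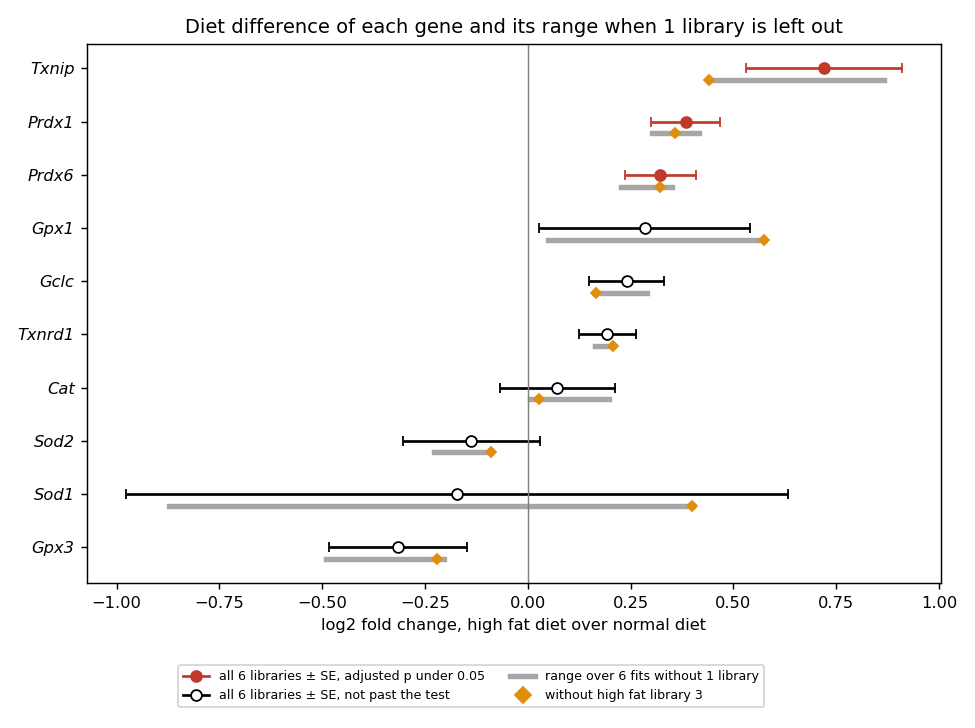
Log2 fold change (high fat diet over normal diet, x axis) of each gene, with SE, from all 6 libraries (circles, filled where the adjusted p is under 0.05), its range over the 6 fits that leave out 1 library (grey bars) and its value without high fat library 3 (diamonds). The diamond of Txnip lies at the low end of its bar and those of Gpx1 and Sod1 at the high end.

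Of the glutathione peroxidases, which reduce peroxides with glutathione, Gpx1 is the form inside cells and Gpx3 the secreted form. Gpx1 had 94.9, 111 and 47.6 CPM in high fat libraries 1, 2 and 3, against 61.9, 72.3 and 73.6 CPM in the normal diet libraries. High fat libraries 1 and 2 lay above all normal diet libraries and high fat library 3 below all of them. The log2 fold change was 0.28 (SE 0.26, edgeR adjusted p = 0.48). It passed once high fat library 3 was left out, at 0.57 (edgeR adjusted p = 0.0057), and stood at -0.0017 by limma on values scaled by library totals, with all libraries. Gpx1 is a short, GC-rich gene (57.2% GC in its longest transcript), and coding loci above 55% GC were lower in that library than in the other high fat libraries, with a median log2 ratio of -0.49 over 2455 loci. The part of base composition in the Gpx1 value was not tested.

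Gpx3 had 57.3, 45.8 and 42.2 CPM in the high fat libraries, against 46.5, 70.7 and 63.7 CPM in the normal diet libraries. The diets overlapped, because normal diet library 1 was below high fat library 1, and the log2 fold change was -0.32 (SE 0.17, edgeR adjusted p = 0.23). Left-out libraries gave values from -0.49 to -0.20, with none past the test.

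Gclc encodes the catalytic subunit of glutamate cysteine ligase, the rate-limiting enzyme of glutathione synthesis. It had 52.7, 52.3 and 61.4 CPM in the high fat libraries, against 46.0, 48.3 and 46.6 CPM in the normal diet libraries. The diets did not overlap, and the log2 fold change was 0.24 (SE 0.092, edgeR adjusted p = 0.11). No fit that left out 1 library brought Gclc past the test. Groups without overlap in this direction were common, at 18.8% of all loci tested and 26.8% of loci linked to coding genes, against 5 of these 10 genes. Groups without overlap in the other direction made up 20.4% of all loci, against 0 of the 10 genes.

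Cat, which encodes the peroxisomal enzyme catalase, had 8.37, 11.1 and 10.8 CPM in the high fat libraries, against 9.04, 9.52 and 10.2 CPM in the normal diet libraries. High fat library 1 was the lowest of all 6 and high fat library 2 the highest. The log2 fold change was 0.07 (SE 0.14, edgeR adjusted p = 0.76), and it turned to -0.13 with library totals, both by edgeR and by limma, and to -0.060 with the acinar level as a covariate.

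The Sod1 locus, from the gene of the cytosolic copper-zinc dismutase, had 8.29, 5.56 and 0.247 CPM in high fat libraries 1, 2 and 3, against 4.83, 6.29 and 4.73 CPM in the normal diet libraries. High fat library 3 held 32 reads there, where the other 5 libraries held 537 to 939. The log2 fold change was -0.17 (SE 0.80, edgeR adjusted p = 0.90), and without high fat library 3 it turned to 0.40 (edgeR adjusted p = 0.16). The Sod2 locus, from the gene of the mitochondrial manganese dismutase, had 1.15, 1.16 and 1.06 CPM in the high fat libraries, against 1.34, 1.25 and 1.11 CPM in the normal diet libraries. The diets overlapped, normal diet library 3 being below high fat libraries 1 and 2. The Sod2 log2 fold change was -0.14 (SE 0.17, edgeR adjusted p = 0.60). The locus that overlaps Sod2 on the other strand had lower counts on the high fat diet. It had 5.21, 4.53 and 5.12 CPM in the high fat libraries against 10.6, 7.59 and 7.18 CPM in the normal diet libraries. The difference was -0.77 on the log2 scale (edgeR adjusted p = 0.033). That locus takes part in the same overlap, so its counts do not give the level of its RNA either.

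The wider pathways were read from lists of 108 genes in 11 groups, of which 95 genes were tested. Of these 15 rose and 4 fell, the 3 genes above included, with a median log2 fold change of 0.11. Over all loci tested 5.95% rose and 4.86% fell, and over coding loci 8.74% rose and 2.99% fell. The same shares stand beside the counts of each list below. With library totals in place of TMM 4 rose and 5 fell, while over all loci the split was 300 higher and 3039 lower, against 1426 higher and 1165 lower with TMM. The 16 genes outside the 10 that passed kept their direction under every alternative run, which their choice by that test makes likely. In the fits that each left out 1 library, 96 of the genes were tested. Without normal diet library 1, 2 or 3 or high fat library 2, 0 of the 96 passed edgeR, with 26.0%, 28.1%, 26.0% and 31.2% at an unadjusted p under 0.05, where 22.4%, 25.2%, 25.6% and 25.3% of all loci had such a p. In the fit that left out high fat library 1, 2 passed (Mt1 and Mt2), where 128 of 24927 loci did. When high fat library 3 was the one left out, 32 of the 96 passed, where 5035 of 24893 loci did.

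In the thioredoxin list 5 of 16 rose and 0 fell, with a median of 0.29. Txn1, thioredoxin itself, rose at 57.7, 61.7 and 52.8 CPM in the high fat libraries against 40.8, 41.5 and 44.7 CPM in the normal diet libraries, a difference of 0.44 on the log2 scale (SE 0.091, edgeR adjusted p = 0.029). The thioredoxin-like gene Txnl1 rose by 0.37, the endoplasmic reticulum gene Txndc12 by 0.32, and Msrb2, a mitochondrial methionine sulfoxide reductase that repairs oxidised proteins, by 0.47 on the log2 scale. Of the peroxiredoxins 3 of 5 rose, and the third was the mitochondrial Prdx3 at 85.1, 92.8 and 95.2 CPM in the high fat libraries against 63.0, 65.7 and 73.0 CPM in the normal diet libraries (log2 fold change 0.44, edgeR adjusted p = 0.028). Prdx2 shares 94.5% of its exonic bases with another locus and was not tested.

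Gpx2, the gastrointestinal form of glutathione peroxidase, was the 1 gene of 5 in its list that rose, at 24.6, 23.9 and 20.9 CPM in the high fat libraries against 10.02, 14.0 and 11.1 CPM in the normal diet libraries. Its log2 fold change was 0.99 (SE 0.14, edgeR adjusted p = 0.017), above that of any of the 10 genes. In the list of dismutases and catalase 0 of 4 passed edgeR, with 0 at an unadjusted p under 0.05 and 0 by DESeq2. That count says little of the dismutases, because Sod1, Sod2 and Ccs share 71.0%, 62.0% and 81.2% of their exonic bases with other loci. Of the 4, only Cat shares none. In glutathione synthesis and recycling 0 of 12 passed edgeR, with 4 at an unadjusted p under 0.05 and 2 by DESeq2. There Slc3a2, which encodes the heavy chain of the cystine transporter, stood at 0.09 and Gsr, which encodes glutathione reductase, at 0.19 on the log2 scale, and with library totals both turned, to -0.12 and -0.02. Of NRF2 regulators and targets 1 of 22 rose (Prdx1) and 1 fell, the glutathione transferase gene Gstm1 at -0.56 (SE 0.15, edgeR adjusted p = 0.049), with a list median of 0.05.

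**Figure D4:**
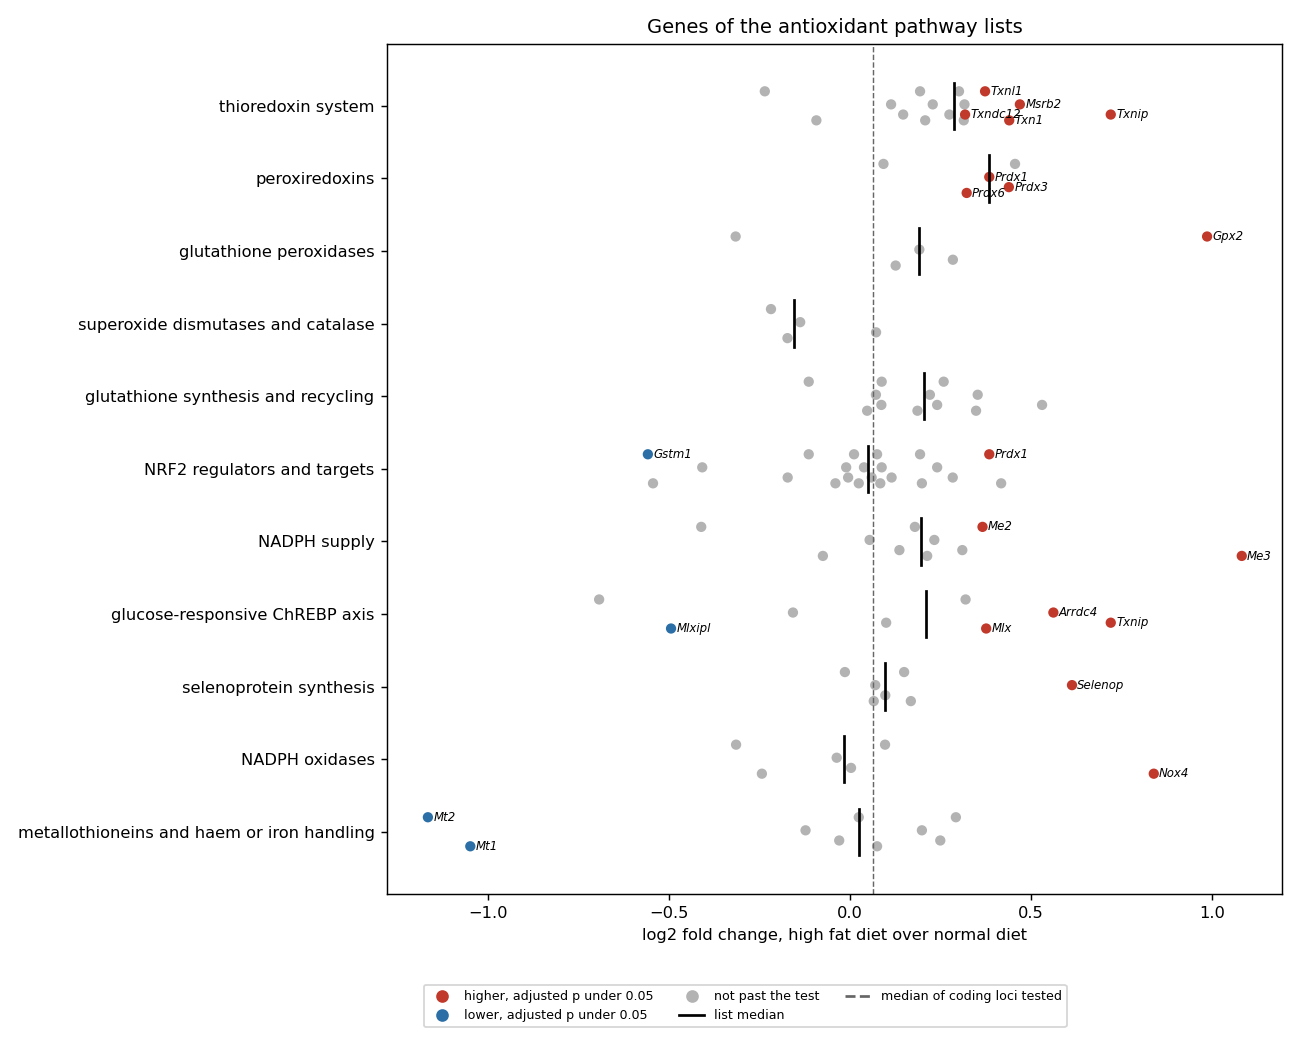
Log2 fold change (high fat diet over normal diet, x axis) of every tested gene in the 11 pathway lists (rows), red where higher and blue where lower at an adjusted p under 0.05, with list medians (black bars) and the median of coding loci (dashed line). Of the rises, 5 lie in the thioredoxin row and 3 each in the peroxiredoxin and ChREBP rows (Txnip in both the thioredoxin and ChREBP rows), and the falls are Gstm1, Mlxipl, Mt1 and Mt2.

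In the list drawn up for the supply of NADPH, which thioredoxin and glutathione reductases consume, 2 of 10 genes rose and 0 fell. Me3, a mitochondrial malic enzyme gene, had 13.8, 16.1 and 9.05 CPM in the high fat libraries, against 5.33, 7.66 and 5.41 CPM in the normal diet libraries (log2 fold change 1.08, SE 0.23, edgeR adjusted p = 0.030). Me2, its mitochondrial relative, rose by 0.37 on the log2 scale, but its place in the list does not show that its enzyme supplies NADPH. In the list around ChREBP, which turns glucose into transcription of Txnip, 3 of 8 rose and 1 fell. Arrdc4, an arrestin-like relative of Txnip, had 52.9, 51.1 and 59.3 CPM in the high fat libraries, against 37.0, 35.7 and 37.9 CPM in the normal diet libraries (log2 fold change 0.56, SE 0.090, edgeR adjusted p = 0.020). Mlx rose by 0.38. Mlxipl, the gene of ChREBP itself, fell, at 123, 108 and 99.98 CPM in the high fat libraries against 166, 171 and 129 CPM in the normal diet libraries (log2 fold change -0.49, SE 0.12, edgeR adjusted p = 0.042).

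Selenop, which encodes the secreted selenium carrier, was the 1 gene of 7 in the selenoprotein synthesis list that rose, at 1444, 1501 and 1444 CPM in the high fat libraries against 895, 1084 and 892 CPM in the normal diet libraries (log2 fold change 0.61, edgeR adjusted p = 0.019). Nox4, an NADPH oxidase that makes hydrogen peroxide, was the 1 of 6 oxidase genes that rose, at a low level of 0.839, 0.890 and 0.841 CPM in the high fat libraries against 0.392, 0.547 and 0.498 CPM in the normal diet libraries (log2 fold change 0.84, edgeR adjusted p = 0.038). Of the metallothionein genes, whose proteins bind zinc and copper and scavenge radicals, Mt1 and Mt2 fell. Mt1 had 53.4, 37.0 and 28.0 CPM in the high fat libraries, against 72.6, 85.5 and 86.5 CPM in the normal diet libraries (log2 fold change -1.05, SE 0.21, edgeR adjusted p = 0.027). Mt2 fell by 1.16 on the log2 scale. They were the 2 of 9 genes in their list that passed. Mt3, named after its values were seen, overlapped between the diets and stood at -0.12 (edgeR adjusted p = 0.85).

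The symbol-linked loci whose pattern over the 6 libraries was most like that of Txnip were Smarca5, Mfsd8 and Usp33, each with a Pearson r of 0.996 to 0.997 on log2 CPM. Among 12014 loci compared 324 had an r above 0.95, all over the same 6 libraries, 3 per diet. Gclc was the nearest of the 10 genes, with an r of 0.989, and Gpx1 stood at -0.31 with high fat library 3 and 0.88 without it.

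Markers of other cell types were summed in the same libraries, and their part in the results above was not tested. Beta-cell markers summed to 84423 to 103794 CPM in high fat and 58578 to 68868 CPM in normal diet libraries, with 2 of 6 higher, and Slc2a2 and Nkx6-1 listed at 0, both with over 99% of exonic bases shared. Most of that sum was Iapp, at 53254 to 64984 CPM in high fat and 34801 to 36196 CPM in normal diet libraries. Ins1 and Ins2 did not pass (edgeR adjusted p = 0.12 and 0.61). Alpha-cell markers summed to 17915 to 21649 CPM in high fat and 22895 to 25279 CPM in normal diet libraries, with 3 of 5 lower, and Ttr, which has 100% of its exonic bases shared, listed at 0. Acinar markers summed to 5496 to 11773 CPM in high fat and 3756 to 7245 CPM in normal diet libraries, with 1 of 22 higher. Their share of counts was 0.821 ± 0.28% in high fat and 0.616 ± 0.18% in normal diet libraries (SD, n = 3 each; exact permutation p = 0.4, two-sided, smallest possible 0.1). Macrophage markers summed to 178 to 223 CPM in high fat and 232 to 252 CPM in normal diet libraries, with 1 of 9 lower. Schwann cell markers summed to 15.1 to 20.6 CPM in high fat and 22.6 to 24.1 CPM in normal diet libraries, with 3 of 6 lower. Adipocyte markers summed to 17.6 to 30.3 CPM in high fat and 9.31 to 9.96 CPM in normal diet libraries, with 1 of 2 higher (Fabp4), while Adipoq, Plin1 and Lep were at or near 0. Stromal markers summed to 458 to 605 CPM in high fat and 382 to 483 CPM in normal diet libraries, with 2 of 12 higher and 1 lower. Most of that sum was the pericyte gene Rgs5, at 336 to 404 CPM in high fat and 230 to 240 CPM in normal diet libraries. The median log2 fold change of the 12 genes went the other way, at -0.48. The lists for endothelial, duct, erythrocyte, lymphocyte and delta and PP cells held 24 tested genes, of which 0 passed the edgeR test, 4 had an unadjusted p under 0.05 and 0 passed by DESeq2. Their sums overlapped between the diets.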

How the data were processed

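The measurements are RNA-seq libraries of islets, 6 in all. TopHat2 2.0.8, HTSeq 0.5.4p3, edgeR, Cufflinks 2.1.1 and the build mm9 are named in the submitters' processing notes, without their roles or settings. The authors deposited raw counts of reads per assembled locus, exon coordinates (98161 transcripts), and scaled values, a signal that equals the count times 1 constant per library (0.906 to 1.10), in which 100% of values came out as whole reads within 0.001.

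Loci were linked to GENCODE M21 genes (GRCm38) by exon and intron lengths on the same chromosome and strand, each measured in its own build. Transcripts of 3 or more exons needed the same chain (18209 loci), and those of 2 exons, such as Gpx1, the same intron and ends within 40 bases (1518 loci). Single-exon genes were not linked. Exonic bases shared with other loci were counted on either strand with bedtools 2.31.1.

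Counts were tested in R 4.3.3 with edgeR 4.0.16 (filterByExpr, TMM, quasi-likelihood, diet only, two-sided). For the SE, the size of the log2 fold change was divided by the square root of F. DESeq2 1.42.0 and limma 3.58.1 (log2 of scaled values per 1000000 plus 0.5) served as alternatives. Scaling per 1000000 cancels the deposited constants, so the limma fit also uses library totals. Other alternatives were other scalings, no filter, an acinar covariate, a replicate block and each library left out. The code was tested on simulated data. Named are all 10 genes, up to 4 genes of each pathway list past the threshold or, with none, 2 abundant ones, the 3 loci most like Txnip, and Mt3, added after its values were seen. Members and lists were chosen with earlier results of these data known.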

Additional observations from a re-analysis of the deposited data

How the results depend on the processing

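Over all loci, 2591 passed with all libraries. The replicate block gave 74 loci, the acinar covariate 0 (4895 at an unadjusted p under 0.05), DESeq2 4114, and loci sharing no exonic bases, an alternative chosen after seeing the data, 1637. Leaving out 1 library gave 0 to 5035 loci. More loci passed with library totals, at 3339 (300 higher, 3039 lower), and with limma, at 3510 (310 higher, 3200 lower). The share of loci at an unadjusted p under 0.05 was 33.5% and 34.3% there, against 31.8% in the main fit. Of the 10 genes, 0 in place of 3 passed with library totals only, the replicate block, the acinar covariate, limma on the deposited scaled values, and loci sharing no exonic bases (6 genes tested), with 2, 4, 4, 2 and 3 at an unadjusted p under 0.05. With library totals and with limma, which share that scaling, the 3 genes were thus lost while more loci were called over all, most of them lower. The TMM factors were 0.909 to 0.958 in high fat and 1.05 to 1.10 in normal diet libraries. The deposited constants, which the limma fit cancels, were 1.02 to 1.10 in high fat and 0.906 to 0.958 in normal diet libraries. Leaving out 1 library gave 0 to 5 genes. Of the pathway genes, 19 passed with all libraries, 9 with library totals, 0 with the replicate block, 0 with the acinar covariate (30 and 25 at an unadjusted p under 0.05), 10 by limma, and 0 to 32 with 1 library left out. Deviations from the group means correlated at -0.14, 0.089 and -0.058 between libraries of the same number, and at -0.22 to 0.24 between libraries of different numbers. With 3 libraries per diet these values cannot settle whether the replicate numbers pair the libraries.

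Direction turned in 7 of 136 values of the 10 genes and in 0 of 223 values of the 16 other pathway genes that passed. With library totals Cat stood at -0.13 and Txnrd1 at -0.0098. By limma Cat stood at -0.13, Txnrd1 at -0.0092 and Gpx1 at -0.0017. With the acinar covariate Cat stood at -0.060. Sod1 ranged from -0.87 to 0.40 with 1 library left out, turning without high fat library 3. The cause was not tested. The difference in acinar share stayed between 0.0802 and 0.359 percentage points when 1 library was left out, against 0.205. Per length of the longest transcript Sod2 stood at 0.2003 CPM per kb in place of 0.126, and Txnrd1 at 52.8 in place of 47.1. Sod1 and Sod2 rest on at most 939 and 167 reads per library.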

Other observations

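The 3 selenoproteins among the 10 genes did not pass the test, but other selenoprotein genes did. This list, all genes with an annotated selenocysteine codon in GENCODE M21 (24), was made after values had been seen, so its counts are a description. Among coding loci 8.74% rose and 2.99% fell. Of the 19 genes tested here, 7 rose and 0 fell, with a median log2 fold change of 0.21. They were Selenop, Gpx2 and, at log2 fold changes of 0.74, 0.51, 0.45, 0.40 and 0.37, Dio1, Selenof, Selenos, Selenot and Selenok. Dio1 encodes a thyroid hormone deiodinase, and had 256, 283 and 206 CPM in high fat libraries against 135, 161 and 151 CPM in normal diet libraries (edgeR adjusted p = 0.021). Selenof, Selenos, Selenot and Selenok encode proteins of the endoplasmic reticulum. Selenom, another such gene, had 111, 123 and 38.7 CPM in high fat libraries 1, 2 and 3, against 68.3, 86.3 and 84.3 CPM in normal diet libraries (log2 fold change 0.19, edgeR adjusted p = 0.74).

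High fat library 3 differed from the other high fat libraries by base composition and by length. The median log2 ratio of its level to their mean was 0.21 for 699 coding loci up to 40% GC, 0.17 for 2362 loci from 40 to 45%, 0.09 for 3069 loci from 45 to 50%, -0.10 for 2909 loci from 50 to 55% and -0.49 for 2455 loci above 55%. The same ratio of normal diet library 3 to the other normal diet libraries stayed between 0.01 and 0.02 in all 5 classes. By exonic length the ratio in high fat library 3 was -0.25 for 421 loci up to 1000 bases and 0.08 for 5115 loci above 5000 bases. Normal diet library 3 also varied with length, less and in the other direction, at 0.09 and -0.015 in these classes. Of the 10 genes, Gpx1 (57.2% GC) had a ratio of -1.11 and Gpx3 (56.0% GC) -0.29, while Txnip (48.3% GC) had 0.73 and Sod1 (47.6% GC) -4.81.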
